A study of Mus musculus with 12 samples.

Results

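The genes described here encode the presynaptic vesicle release machinery, the proteins that fill, dock, prime and fuse synaptic vesicles at the axon terminal. The set was chosen by gene symbol and holds 44 genes, all of them found among the 21872 symbols of the count table. They fall into vesicle membrane proteins and synapsins (Syn1, Syn2, Syn3, Syp, Sv2a, Sv2b, Sv2c, Slc17a7), small Rab GTPases of the vesicle (Rab3a, Rab3b, Rab3c), and calcium sensors and other synaptotagmins (Syt1 to Syt7, Syt9 to Syt12, Doc2a, Doc2b). SNARE proteins with their regulators (Vamp1, Vamp2, Snap25, Stx1a, Stxbp5, Cplx1, Cplx2, Cplx3, Napb, Nsf), 1 endocytic adaptor (Snap91) and active zone proteins (Rims1, Rims2, Rims3, Unc13a, Unc13b, Unc13c, Bsn, Pclo, Erc2) complete the set.

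The tissue was prefrontal cortex or striatum from C57BL/6J mice, taken at postnatal day 24 for bulk RNA sequencing. One arm was a model of attention-deficit/hyperactivity disorder made after birth with 6-hydroxydopamine (6-OHDA), a toxin taken up by dopamine neurons and meant to remove them. The other arm was control mice of the same strain and age. The 4 groups were lesioned prefrontal cortex, control prefrontal cortex, lesioned striatum and control striatum, with 3 libraries each and 12 in all, and no genetic alteration is named for any of them. The sources used here do not give the dose, route or day of 6-OHDA, or whether control mice received vehicle. Whether each library is a separate animal is not labelled either, and the p-values therefore reflect only spread among libraries, which may be technical.

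Transmitter release follows a fixed order of steps. Rab3 and the RIM proteins bring vesicles to the active zone, Munc13 proteins (the Unc13 genes) open syntaxin for assembly, and the vesicle SNARE synaptobrevin (Vamp1 or Vamp2) zips up with syntaxin 1 (Stx1a) and SNAP25. Complexins hold and prepare the complex, synaptotagmins trigger fusion when calcium enters, and NSF with its SNAP partners takes the spent complex apart. Most of these proteins come as families of paralogs that neuron types use in different mixtures. In striatum most neurons are GABAergic projection neurons, while prefrontal cortex is rich in glutamatergic pyramidal cells that load vesicles with VGLUT1 (Slc17a7). Much of the release machinery protein in striatum sits in axons whose cell bodies, and so most of whose mRNA, lie elsewhere.

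Total counts ran from 15078631 to 20925452 per library, which puts 3 counts at 0.143 to 0.199 CPM, the count scaled to a common library size. The lowest count of any of the 44 genes in any library was 16 (Cplx3), and all 44 passed the filter on low counts in every comparison. They held 2.306 to 2.448% of all counts in the prefrontal libraries and 1.461 to 1.664% in the striatal ones, with no overlap between regions. Summed markers of striatal projection neurons (10 of 10 above 0 in every library) lay at 1695 to 9154 CPM in striatum and 326 to 876 CPM in prefrontal cortex, and those of cortical excitatory neurons at 173 to 416 CPM and 1143 to 1304 CPM. Control striatal library 2 and lesioned striatal library 1 stood apart from the others of their groups. Control striatal library 2 had 2089 CPM of summed choroid plexus markers against 29.4 to 64.4 CPM in the other striatal libraries, and the most cortical excitatory marker RNA of the striatal libraries (416 CPM). Lesioned striatal library 1 had the most striatal projection neuron marker RNA (9154 CPM, against 3702 and 5300 CPM in its group). It also had the lowest sum of thalamic and hypothalamic markers (166 CPM, against 235 to 711 CPM in the other 5 striatal libraries). Not every gene of this list followed the sum. Among striatal libraries Prkch was highest in lesioned library 1, Tcf7l2 was lower in lesioned library 2, and Hcrt was also at 0 elsewhere. Otp, Avp, Oxt, Gpr101, Dlk1 and Slc17a6 were lowest in lesioned striatal library 1. In the prefrontal libraries the thalamic and hypothalamic markers summed to 29 to 35.7 CPM.

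In lesioned prefrontal cortex a small group of release genes, 4 of them of the active zone, was higher than in control. Rims3, Pclo, Unc13a and Unc13b of the active zone, the SNAREs Vamp1 and Snap25 and the calcium sensor Syt2 rose, and the calcium sensor Doc2b fell. That is 7 genes higher and 1 lower of 44, or 18.2%, against 5.73% of the 14018 genes tested (803 genes, 3.45% higher and 2.28% lower) at an adjusted p below 0.05. Among genes averaging at least 10 CPM the share over all genes was 7.23%. The other 36 release genes did not pass the test, and the median log2 fold change over all 44 was 0.02, beside -0.01 over all genes. In bulk tissue a lower level of a transcript may mean fewer cells of a type or less RNA per cell, which cannot be told apart here.

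The test was the quasi-likelihood test of edgeR on the 6 prefrontal libraries. When all 12 libraries shared 1 estimate of spread, none of the 44 genes passed (3 had an unadjusted p below 0.05) and 30 genes passed in all. The biological coefficient of variation was 5.8% in the prefrontal fit and 14.9% in the striatal one. Correction for GC content and transcript length left 5 of the 8 calls (Rims3, Vamp1, Pclo, Snap25 and Doc2b).

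Promoter sequences are shown for 4 of the 7 genes that were called higher in lesioned prefrontal cortex. Whether their levels moved together across libraries was not tested. In RefSeq's table for GRCm38.p6, 34 of the 44 genes had a transcript start, with 43 windows of 250 bases before it. The plus-strand sequence upstream of the start is given for Rims3 (chr4:120854549-120854798), Vamp1 (chr6:125215331-125215550), Pclo (chr5:14514668-14514917) and Unc13b (chr4:43058703-43058952), and all 4 genes lie on that strand. Capitals mark the GC box, GGGCGG or CCGCCC on the other strand, a motif that zinc-finger factors of the Sp family are known to bind.
Rims3: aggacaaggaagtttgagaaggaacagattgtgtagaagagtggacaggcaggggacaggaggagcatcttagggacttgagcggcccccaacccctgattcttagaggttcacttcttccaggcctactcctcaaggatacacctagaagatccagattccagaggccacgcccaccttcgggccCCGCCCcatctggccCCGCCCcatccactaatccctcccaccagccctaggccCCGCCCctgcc
Vamp1: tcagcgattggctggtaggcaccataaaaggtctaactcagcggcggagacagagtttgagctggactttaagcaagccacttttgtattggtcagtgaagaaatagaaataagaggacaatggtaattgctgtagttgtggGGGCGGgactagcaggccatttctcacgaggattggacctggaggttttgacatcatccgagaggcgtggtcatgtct
Pclo: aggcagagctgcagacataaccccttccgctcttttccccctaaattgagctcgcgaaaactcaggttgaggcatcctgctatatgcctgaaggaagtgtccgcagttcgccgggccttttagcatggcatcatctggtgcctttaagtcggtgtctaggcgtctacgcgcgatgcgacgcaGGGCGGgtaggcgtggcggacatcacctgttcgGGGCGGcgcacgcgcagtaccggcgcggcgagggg
Unc13b: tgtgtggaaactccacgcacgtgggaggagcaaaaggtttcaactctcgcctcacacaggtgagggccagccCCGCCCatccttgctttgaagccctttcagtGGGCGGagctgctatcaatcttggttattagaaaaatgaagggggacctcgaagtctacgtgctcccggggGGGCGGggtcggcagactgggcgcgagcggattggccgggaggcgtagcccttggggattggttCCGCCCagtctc
Rims3 held 3 GC boxes, Vamp1 had 1, Pclo had 2 and Unc13b had 4. A GC box on either strand was found in 28 of the 43 windows of release genes (65.1%), against 32.7% of all 32851 windows of the same length. The cyclic AMP response element TGACGTCA was in 1 window (2.33%, against 1.55% of all), its half-site TGACG in 7 (16.3%, against 17.8%) and the AP-1 motif TGANTCA in 2 (4.65%, against 6.75%), and none of these 3 motifs was in the 4 sequences printed. Windows of Unc13a and Syt2, which also rose and are not printed, did hold some: Unc13a had 2 half-sites and an EGR motif, and Syt2 had 1 half-site and 1 AP-1 motif. The E-box CACGTG was in 6 windows (14%, against 6.02%), the EGR motif GCGTGGGCG in 1 (2.33%, against 0.536%) and the REST half-site CAGCACC in 3 (6.98%, against 5.73%). All motifs were searched on both strands, a half-site within a full site was counted for both, and several genes had more than 1 window. The matches describe letters in these windows and no binding was measured.

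Rims3, which encodes a short RIM protein of the active zone without the Rab3-binding end of RIM1, had the largest prefrontal change of the set. The gene spans chr4:120854816-120896579 on the plus strand in mm10. Its normalised levels were 167, 167 and 151 CPM in the control libraries and 244, 249.98 and 263 CPM in the lesioned ones. Every lesioned library was above every control library. This is a log2 fold change of 0.63 ± 0.05 (SE, 3 libraries a group), or 1.55-fold, with an adjusted p of 0.000123. This was the 2nd smallest p of all genes tested. Over 14 alternative settings the log2 fold change lay between 0.58 and 0.66 and the adjusted p between 5.1e-23 and 0.21, with only the 12-library fit above 0.05. The longer paralogs Rims1 (-0.07) and Rims2 (-0.04) did not pass.

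Pclo, which encodes the giant active zone scaffold piccolo (chr5:14514918-14863459), was at 397, 486 and 415 CPM in control and 539, 582 and 550.4 CPM in lesioned prefrontal cortex. The groups did not overlap. Its log2 fold change of 0.35 ± 0.06 (adjusted p = 0.00658) dropped to 0.19 (adjusted p = 0.0374) with the correction for GC content and length, and without lesioned prefrontal library 2 the adjusted p was 0.0603. Over all alternatives the adjusted p of Pclo ran from 1.31e-05 to 0.135. Bsn, the related scaffold bassoon, was at 911, 1045 and 859 CPM against 1045, 1123 and 1064 CPM, apart by less than 1 CPM, and did not pass (0.19 ± 0.06, adjusted p = 0.0910).

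Unc13a and Unc13b encode Munc13-1 and Munc13-2, the priming factors. Unc13a was at 534, 521 and 534 CPM in control and 645, 643 and 597 CPM in lesioned prefrontal cortex, and Unc13b at 81.0, 73.1 and 72.3 CPM and 91.7, 91.6 and 90.5 CPM. For both genes all lesioned libraries lay above all controls. The log2 fold change was 0.23 ± 0.04 for Unc13a (adjusted p = 0.00853) and 0.26 ± 0.06 for Unc13b (adjusted p = 0.0189). Both calls were lost with the GC and length correction, which gave Unc13a 0.15 (adjusted p = 0.0604) and Unc13b 0.12 (adjusted p = 0.306). Unc13b also missed the threshold without any 1 of the 3 lesioned libraries (adjusted p = 0.0719, 0.0941 and 0.0601), and Unc13a without lesioned library 1 (0.0534) or 2 (0.0704). The range of the adjusted p over the alternatives was 9.93e-05 to 0.483 for Unc13a and 0.00478 to 0.456 for Unc13b. The third paralog, Unc13c (Munc13-3), did not pass (-0.05), nor did Erc2 (0.04), which encodes a scaffold that binds RIM. In all, 4 of the 9 active zone genes rose (44.4%, against 3.45% of the 14018 genes tested) and none fell. Their median log2 fold change over the 9 was 0.19. With the GC and length correction only Rims3 and Pclo of these 4 kept their calls.

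**Figure D1:**
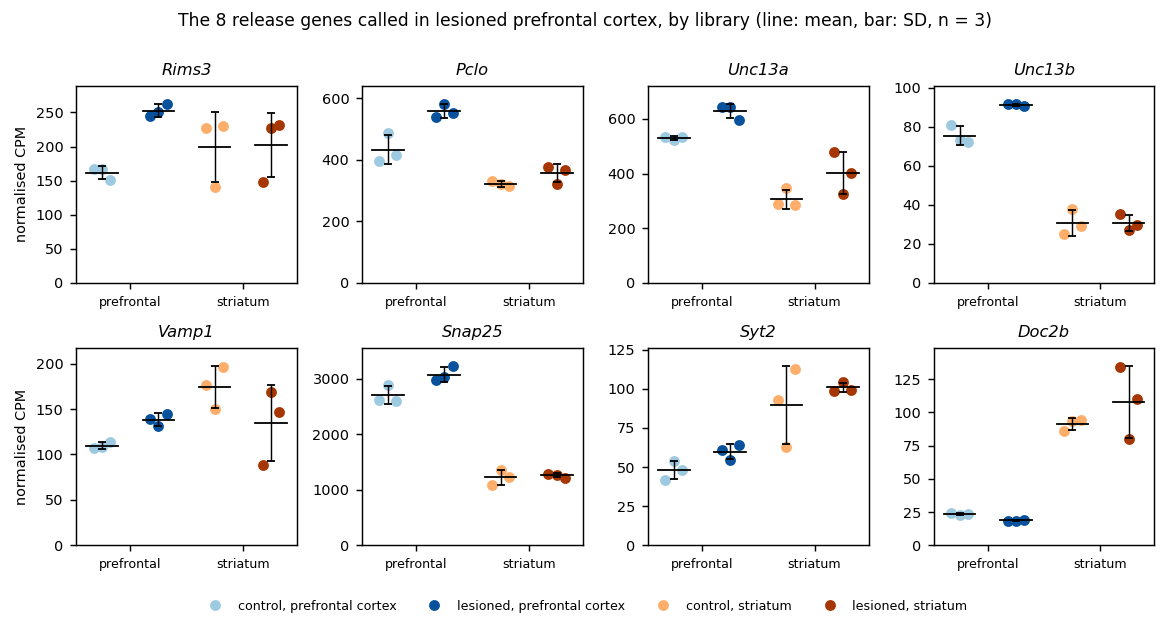
Normalised CPM of the 8 release genes that passed the test in lesioned prefrontal cortex, 1 point per library in each of the 4 groups, with the mean as a line and the SD as a bar (n = 3). In prefrontal cortex the lesioned libraries lie above the controls for 7 genes and below them for Doc2b, and in striatum the groups overlap for all 8.

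Among the SNAREs, Vamp1 and Snap25 rose. Vamp1 encodes synaptobrevin 1, the vesicle SNARE that fast-spiking interneurons and hindbrain and spinal neurons favour over its paralog. It was at 107, 108 and 114 CPM in control and 139, 131 and 145 CPM in lesioned prefrontal cortex, with no overlap. Vamp1 rose by 0.32 ± 0.05 on the log2 scale (adjusted p = 0.00388, from 2.29e-05 to 0.544 over the alternatives, the highest in the 12-library fit). Like Rims3, Vamp1 passed with each of the 6 libraries left out in turn. Vamp2, the main synaptobrevin of the forebrain, was at 1289, 1305 and 1176 CPM against 1135, 1215 and 1247 CPM, overlapping, and did not pass (-0.08, adjusted p = 0.397).

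Snap25, the plasma membrane SNARE and the most abundant transcript of the set per kilobase, was at 2618, 2896 and 2607 CPM in control and 2973, 3027 and 3234 CPM in lesioned prefrontal cortex. The lowest lesioned library lay just above the highest control. Snap25 rose by 0.17 ± 0.05 on the log2 scale (adjusted p = 0.0481). The call was lost in 5 of the 6 fits that left out 1 library and kept without control library 2 (adjusted p = 0.00393, with 0.446 the highest over all alternatives). Keeping the genes that hold only multiples of 11 in the table also lost it (adjusted p = 0.0648). Stx1a, which encodes syntaxin 1A, was at 405, 399 and 409 CPM against 431, 405 and 393 CPM and did not pass (0.01). Neither did Stxbp5 (tomosyn, 0.15, adjusted p = 0.0962), Cplx1 (0.10), Cplx2 (0.08), Nsf (0.02) or Napb (-0.00). Cplx3, a complexin of few cortical neurons, was at 15.5, 19.8 and 19.2 CPM against 23.1, 19.1 and 21.2 CPM, overlapping (0.22, adjusted p = 0.262).

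Of the calcium sensors, Syt2 rose and Doc2b fell. Syt2, the fast sensor of parvalbumin interneurons and of brainstem synapses, was at 42.0, 53.8 and 48.2 CPM in control and 60.8, 54.6 and 64.0 CPM in lesioned prefrontal cortex. The closest libraries of the groups differed by less than 1 CPM. Its log2 fold change was 0.31 ± 0.08 (adjusted p = 0.0459). With the GC and length correction it was 0.26 (adjusted p = 0.0877), and without control library 2 the adjusted p was 0.01, the lowest of a range that reached 0.528. Each of the other 5 fits that left out 1 library lost the call, as did the fit that kept the multiples of 11 (adjusted p = 0.0761).

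Doc2b encodes a soluble, high-affinity calcium sensor linked to spontaneous and asynchronous release. It was at 24.2, 22.6 and 23.9 CPM in control and 18.7, 18.4 and 19.4 CPM in lesioned prefrontal cortex, so that every lesioned library was lower. Doc2b had a log2 fold change of -0.34 ± 0.08 (adjusted p = 0.0227, from 0.0158 to 0.454 over the alternatives), and 5 of the 6 fits that left out 1 library lost the call. Doc2a, its paralog, was at 63.6, 64.2 and 60.5 CPM against 67.2, 64.9 and 68.9 CPM and did not pass (0.08). Syt1, the main fast sensor of the forebrain, was at 2082, 2335 and 2063 CPM against 2125, 2241 and 2278 CPM, overlapping (0.02, adjusted p = 0.838). The 9 other synaptotagmins lay between -0.11 (Syt4) and 0.19 (Syt9), and none passed.

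No vesicle membrane gene or synapsin passed in prefrontal cortex. Syp, which encodes the abundant vesicle protein synaptophysin, came closest. It was at 1627, 1664 and 1612 CPM in control and 1495, 1528 and 1494 CPM in lesioned libraries. All 3 lesioned libraries were lower than all 3 controls, with a log2 fold change of -0.13 ± 0.04 (adjusted p = 0.0566, and from 0.0284 to 0.687 over the alternatives, passing with DESeq2 and without control library 2). Slc17a7 was at 2074, 2137 and 2022 CPM against 1916, 2026 and 2001 CPM, overlapping (-0.08, adjusted p = 0.268). Syn1, which tethers vesicles in the reserve pool, was at 801, 894 and 788 CPM against 791, 843 and 857 CPM (-0.01), and Sv2c, a vesicle glycoprotein, at 35.3, 41.2 and 43.4 CPM against 38.7, 40.7 and 44.2 CPM (0.04), both overlapping. Each of the 3 Rab3 genes lay below 0 (Rab3a -0.12, Rab3b -0.16, Rab3c -0.12) without passing.

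Libraries of the compared groups did not overlap for 15 of the 44 genes in prefrontal cortex, 11 higher and 4 lower, where 25.3% of all genes tested did not overlap (14.2% higher and 11.1% lower). Summed GABA interneuron markers (7 of 7 above 0) were 898 to 911 CPM in control and 921 to 967 CPM in lesioned prefrontal libraries, without overlap. Of the 7, Gad1 was higher in every lesioned library (358.7, 332.4 and 333.6 CPM against 369.3, 384.3 and 388.5 CPM) and the other 6 overlapped, among them Pvalb (29.7, 30.8 and 32.5 CPM against 33.5, 30.6 and 38.3 CPM) and Vip (52.1, 51.9 and 48.6 CPM against 44.5, 42.9 and 51.7 CPM). Summed astrocyte markers (5 of 5 above 0) were 1221 to 1342 CPM against 1118 to 1183 CPM, without overlap, with Aqp4 and Slc1a3 lower in every lesioned library and Gfap, Aldh1l1 and Gja1 overlapping. Summed endothelial markers (5 of 5 above 0) were 211 to 231 CPM against 196 to 203 CPM, without overlap, with Cldn5 and Slco1a4 lower and Flt1 higher in every lesioned library, and Pecam1 and Ly6c1 overlapping. The groups overlapped for summed striatal projection neuron markers (391 to 876 CPM against 326 to 515 CPM). They also overlapped for the sums of cortical excitatory, mature oligodendrocyte and microglia markers. Of the cortical excitatory markers, Neurod2 (94.3, 95.1 and 85.4 CPM against 107.7, 113.5 and 115.3 CPM), Cux2 and Rorb were higher in every lesioned library. The others of that list overlapped. Of the microglia markers, Cx3cr1 and C1qa were lower and Csf1r higher in every lesioned library, and the others overlapped. Choroid plexus markers summed to 4.26 to 5.63 CPM in 5 prefrontal libraries and to 33.9 CPM in lesioned library 2. Of this sum Ttr alone was 29.0 CPM. Folr1 was at 0.664 CPM in that library, against 0.0605 to 0.477 CPM in the others. Kcnj13, Clic6 and Kl lay within the range of the others. The part of these differences in the prefrontal results was not tested.

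In lesioned striatum no release gene passed the test. The counts were 0 of 44 genes and 4 of all 14288 genes tested, or 0.0280%. By log2 fold change 26 release genes lay above 0 and 18 below, with a median of 0.04, beside -0.00 over all genes. At an unadjusted p below 0.05 the counts were 8 of 44 genes and 2475 of all genes tested (17.3%). DESeq2 called 1 of the 44 (Cplx3), and the edgeR fit over all 12 libraries called 3 (Cplx3, Sv2c and Syp) among 1040 genes. Groups did not overlap for 6 release genes (Sv2c higher, and Syp, Napb, Rab3a, Syn2 and Cplx1 lower), against 25.8% of all genes (13.1% higher and 12.7% lower).

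The 3 genes with the smallest p in striatum were Sv2c, Cplx3 and Syp, none of which passed in the fit of the 6 striatal libraries. Sv2c, the SV2 form of basal ganglia neurons (chr13:95954594-96132577, minus strand), was at 201, 123 and 183 CPM in control and 284, 215 and 285 CPM in lesioned striatum. The lowest lesioned library lay above the highest control. The log2 fold change was 0.63 ± 0.19 (adjusted p = 0.210), 0.63 in the 12-library fit (adjusted p = 0.0402) and 0.38 without the 2 striatal libraries that stood apart. Summed striatal projection neuron markers were higher in every lesioned library than in every control one (3702 to 9154 CPM against 1695 to 2750 CPM). Of this list Tac1 overlapped (100.8, 75.9 and 84.8 CPM against 173.8, 80.5 and 107.5 CPM). Each other gene of the list was higher in every lesioned library. The part of these markers in the Sv2c values was not tested.

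Syp was at 943, 1052 and 994 CPM in control and 679, 832 and 867 CPM in lesioned striatum, with every lesioned library lower. The log2 fold change was -0.34 ± 0.11 (adjusted p = 0.223), and it was -0.19 without the 2 libraries that stood apart and -0.33 in the 12-library fit (adjusted p = 0.0427). Cplx3 was at 1.28, 0.920 and 2.43 CPM against 8.05, 7.88 and 1.64 CPM, from 22, 16 and 48 reads against 131, 147 and 28 reads. Lesioned library 3 lay within the control range, so the groups overlapped. For Cplx3 the log2 fold change was 1.90 ± 0.62 (adjusted p = 0.219), with 1.92 in DESeq2 (adjusted p = 0.039) and 1.89 in the 12-library fit (adjusted p = 0.0412). Over 15 striatal alternatives the log2 fold change ran from 0.38 to 0.76 for Sv2c, -0.40 to -0.19 for Syp and 1.35 to 2.40 for Cplx3, and the highest adjusted p was 0.378, 0.414 and 0.393.

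Slc17a7 varied more than any other release gene between striatal libraries. It had 117, 11743 and 1379 reads in control and 3265, 2506 and 767 reads in lesioned striatum, or 6.82, 676 and 69.9 CPM against 201, 134 and 44.9 CPM. Control library 2, which also had the most cortical excitatory marker RNA (416 CPM) and the choroid plexus RNA, was the highest, and the groups overlapped. The log2 fold change was -1.0 ± 1.30 (adjusted p = 0.707) and turned to 1.71 without control library 2. Sv2b, an SV2 form abundant in cortical glutamatergic neurons, followed the same order of control libraries at 84.1, 290.4 and 124 CPM, with 259, 157 and 168 CPM after lesion.

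**Figure D2:**
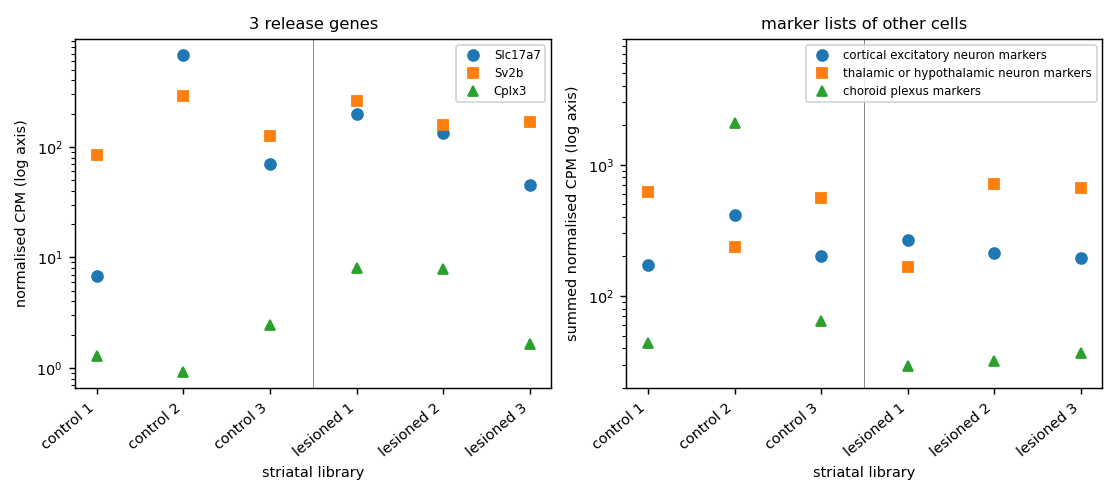
Left, normalised CPM of Slc17a7, Sv2b and Cplx3 in each of the 6 striatal libraries, and right, the summed normalised CPM of cortical excitatory, thalamic or hypothalamic and choroid plexus markers in the same libraries, both on log axes. Control library 2 has the highest Slc17a7 (676 CPM), Sv2b (290.4 CPM) and choroid plexus sum (2089 CPM).

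The genes called in prefrontal cortex gave these values in striatum. Rims3 was at 228, 140.5 and 229.9 CPM in control and 147, 227 and 231 CPM in lesioned striatum, with the 2 libraries that stood apart as the low ones of each group (log2 fold change 0.01 ± 0.23). Vamp1 was at 176, 149.8 and 196 CPM against 88.0, 168 and 147 CPM, where lesioned library 1 was the lowest (-0.38 ± 0.23). Pclo (0.14), Unc13a (0.38), Unc13b (0.00), Snap25 (0.04), Syt2 (0.17) and Doc2b (0.23) overlapped between the groups.

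**Figure D3:**
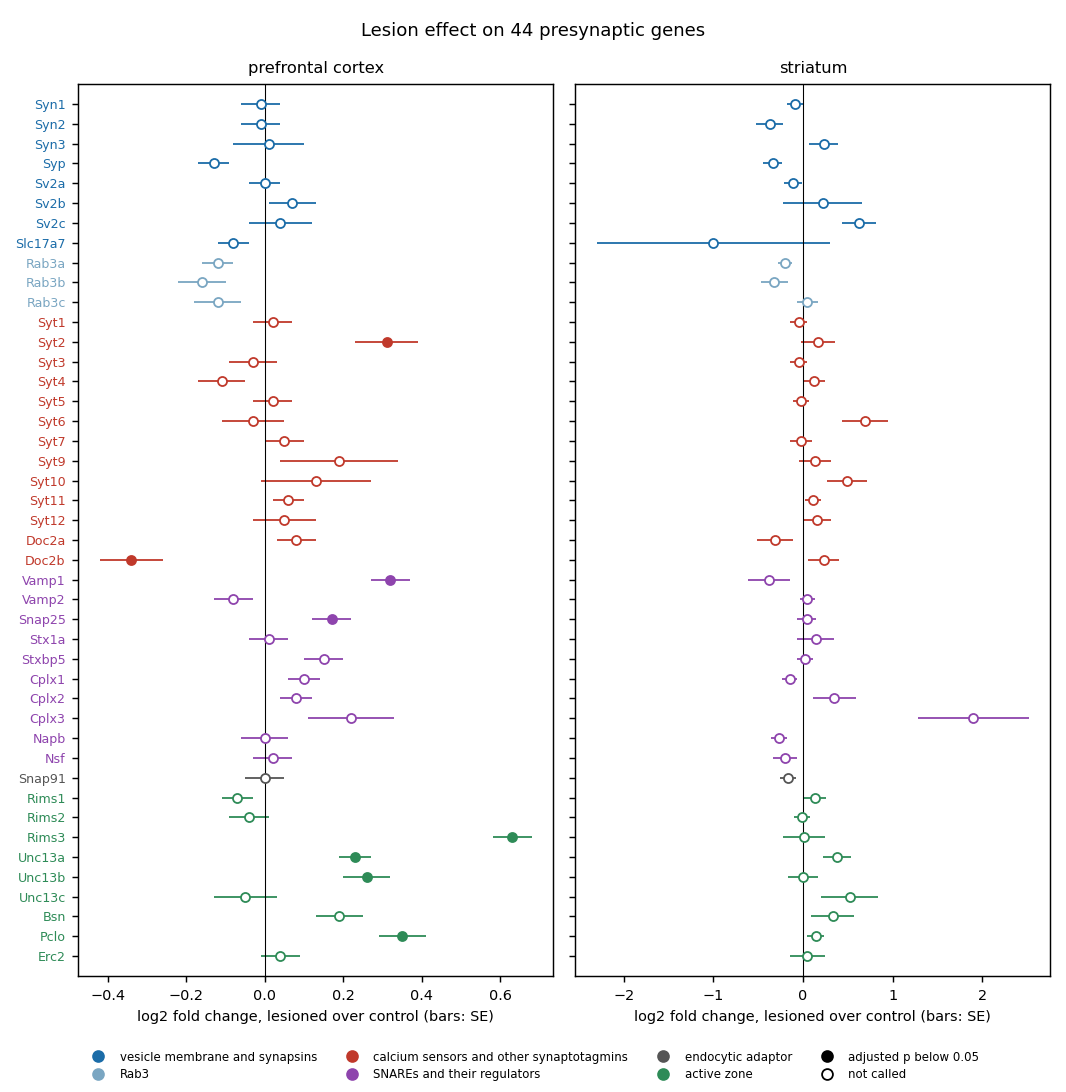
Log2 fold change of lesioned over control for each of the 44 release genes in prefrontal cortex (left) and striatum (right), with bars for the standard error, colours for the role and filled points for genes that passed the test. In prefrontal cortex 8 points are filled and the bars are short, and in striatum none is filled and Cplx3 and Slc17a7 have the widest bars.

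Whether the lesion effect differed between regions was tested as an interaction over all 12 libraries. None of the 44 genes passed, beside 12 of the 14545 genes tested (0.0825%), and 8 of the 44 had an unadjusted p below 0.05. DESeq2 also called none of the 44. The striatal effect minus the prefrontal effect was -0.63 ± 0.26 for Rims3 (adjusted p = 0.390), -0.71 ± 0.25 for Vamp1 (0.345), 0.57 ± 0.20 for Doc2b (0.342) and 1.67 ± 0.61 for Cplx3 (0.347). Without the 2 striatal libraries that stood apart, Rims3 (-0.63 ± 0.08, adjusted p = 0.00514) and Vamp1 (-0.57 ± 0.11, adjusted p = 0.0303) passed among 101 genes. Leaving out lesioned striatal library 2 alone, Doc2b passed (0.74 ± 0.12, adjusted p = 0.0317). Over 20 alternatives the adjusted p reached 0.611 for Rims3, 0.586 for Vamp1 and 0.593 for Doc2b, and each of the 3 passed in 1 alternative.

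Between regions most release genes were lower in striatum than in prefrontal cortex, while Unc13c (4.35-fold in controls), Sv2c (4.23-fold) and Doc2b (3.87-fold) led a smaller group that was higher. In control mice 27 of the 44 genes were lower in striatum, 9 were higher and 8 did not pass, so that 81.8% were called against 42.3% of the 14239 genes tested (21.0% lower and 21.3% higher). After lesion 27 were lower, 7 higher and 10 did not pass (77.3%, against 45.2% of 14206 genes, 22.5% lower and 22.7% higher). The median log2 fold change was -0.43 in controls and -0.59 after lesion, beside 0.02 over all genes in each. These comparisons use the same libraries as the lesion comparisons. In both, 33 genes were called in the same direction (7 higher, 26 lower) and none in opposite directions. Syt12, Vamp1 and Rab3b were called in controls alone and Slc17a7 after lesion alone. Rab3b kept its call in controls in only 3 of 14 alternatives (adjusted p = 0.0437, up to 0.146), while Syt12 kept it in 13 and Vamp1 in 14. The difference between the comparisons is the interaction given above, in which none of these genes passed.

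Unc13c, which encodes Munc13-3 (chr9:73479422-73968966), was at 33.6 to 40.4 CPM in control prefrontal cortex and at 186, 87.9 and 209.9 CPM in control striatum, where library 2 was lowest. Its log2 fold change was 2.12 ± 0.29 in controls (adjusted p = 0.000676) and 2.69 ± 0.16 after lesion (adjusted p = 2.49e-05). Sv2c was 2.08 ± 0.18 higher in controls (adjusted p = 6.98e-05) and 2.67 ± 0.13 after lesion (adjusted p = 9.28e-06). For both genes the lowest striatal library lay above the highest prefrontal one.

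Doc2b was at 22.6 to 24.2 CPM in control prefrontal cortex and at 86.0, 93.4 and 93.9 CPM in control striatum, a log2 difference of 1.95 ± 0.07 (adjusted p = 3.69e-06). After lesion it was 18.4 to 19.4 CPM and 134, 79.6 and 109.8 CPM (2.52 ± 0.18, adjusted p = 4.80e-05). Syt6, a less studied synaptotagmin, was at 34.5 to 40.4 CPM in control prefrontal cortex and 94.1, 57.6 and 78.0 CPM in control striatum (1.04 ± 0.16), and 1.76 ± 0.21 higher after lesion. Control library 2 was again the lowest striatal one. Syt10 (0.87 and 1.22), Syt2 (0.91 and 0.76) and Syt9 (0.78 and 0.72) were also called higher in both comparisons, although Syt10 missed the threshold in controls without prefrontal library 3 (adjusted p = 0.0528). Vamp1 was higher in control striatum (0.67 ± 0.10, adjusted p = 0.000886) and at -0.04 ± 0.21 after lesion.

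Among genes lower in striatum, Stx1a was the 2nd lowest by log2 fold change in each comparison. It lay at 399 to 409 CPM in control and 393 to 431 CPM in lesioned prefrontal cortex, and at 33.9, 54.6 and 46.3 CPM in control and 60.2, 48.6 and 40.8 CPM in lesioned striatum. The log2 difference was -3.17 ± 0.16 (adjusted p = 1.05e-05) in controls and -3.04 ± 0.14 (adjusted p = 8.81e-06) after lesion. Cplx3 was at -3.52 ± 0.28 in controls and -1.85 ± 0.43 after lesion, and Sv2b at -2.48 ± 0.40 and -2.34 ± 0.19.

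By group mean, Rims1 was the highest per kilobase of Rims1, Rims2 and Rims3 in prefrontal cortex but not in striatum. It was still the highest in the striatal libraries that stood apart. Its share of the family was 38.5% in control library 2 (Rims3 33.9%) and 41.8% in lesioned library 1 (Rims3 30.4%). Rims1 was at 493, 538 and 503 CPM in control prefrontal cortex and 148, 163 and 158 CPM in control striatum. The groups were far apart, at -1.71 ± 0.07 in controls (adjusted p = 5.89e-06) and -1.51 ± 0.12 after lesion. Doc2a was at 60.5 to 64.2 CPM and at 19.5, 15.6 and 25.2 CPM in the same control groups. It was lower in striatum in both comparisons (-1.64 and -2.04), as were Bsn (-1.44 and -1.30) and Unc13b (-1.30 and -1.56). So were the general components Syn1 (-1.16 and -1.26), Snap25 (-1.14 and -1.28), Syt1 (-0.92 and -1.0), Syp (-0.71 and -0.92) and Vamp2 (-0.67 and -0.55). Slc17a7 did not pass in controls (-3.04 ± 1.21, adjusted p = 0.0750), passed after lesion (-3.97 ± 0.49, adjusted p = 0.000549), and in controls passed without striatal library 2 (-5.73, adjusted p = 1.28e-05) or 1 (-2.47, adjusted p = 0.0472). In all, Slc17a7 passed in 4 of 14 alternatives in controls, and its adjusted p reached 0.174. Sv2a, Syt11, Syt3, Syn3, Rab3c, Cplx2 and Rims3 passed in neither comparison. Rims3 was 0.30 ± 0.17 in controls and -0.32 ± 0.16 after lesion. It passed as higher in controls without striatal library 2 (0.50, adjusted p = 3.98e-05) and as lower after lesion without striatal library 1 (-0.14, adjusted p = 0.048), the 2 libraries that stood apart. Otherwise its adjusted p reached 0.452 and 0.29.

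By role, 8 of 10 SNARE genes, 7 of 9 active zone genes, 4 of 8 vesicle membrane genes and the adaptor Snap91 (-0.78) were lower in control striatum, against 21.0% of all genes tested. The calcium sensors and other synaptotagmins split into 5 higher (Syt2, Syt6, Syt9, Syt10 and Doc2b) and 6 lower. After lesion the counts of lower genes were 8, 7, 5 and 1 for the same roles, against 22.5% of all genes. The calcium sensors and other synaptotagmins then had 5 higher and 5 lower.

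**Figure D4:**
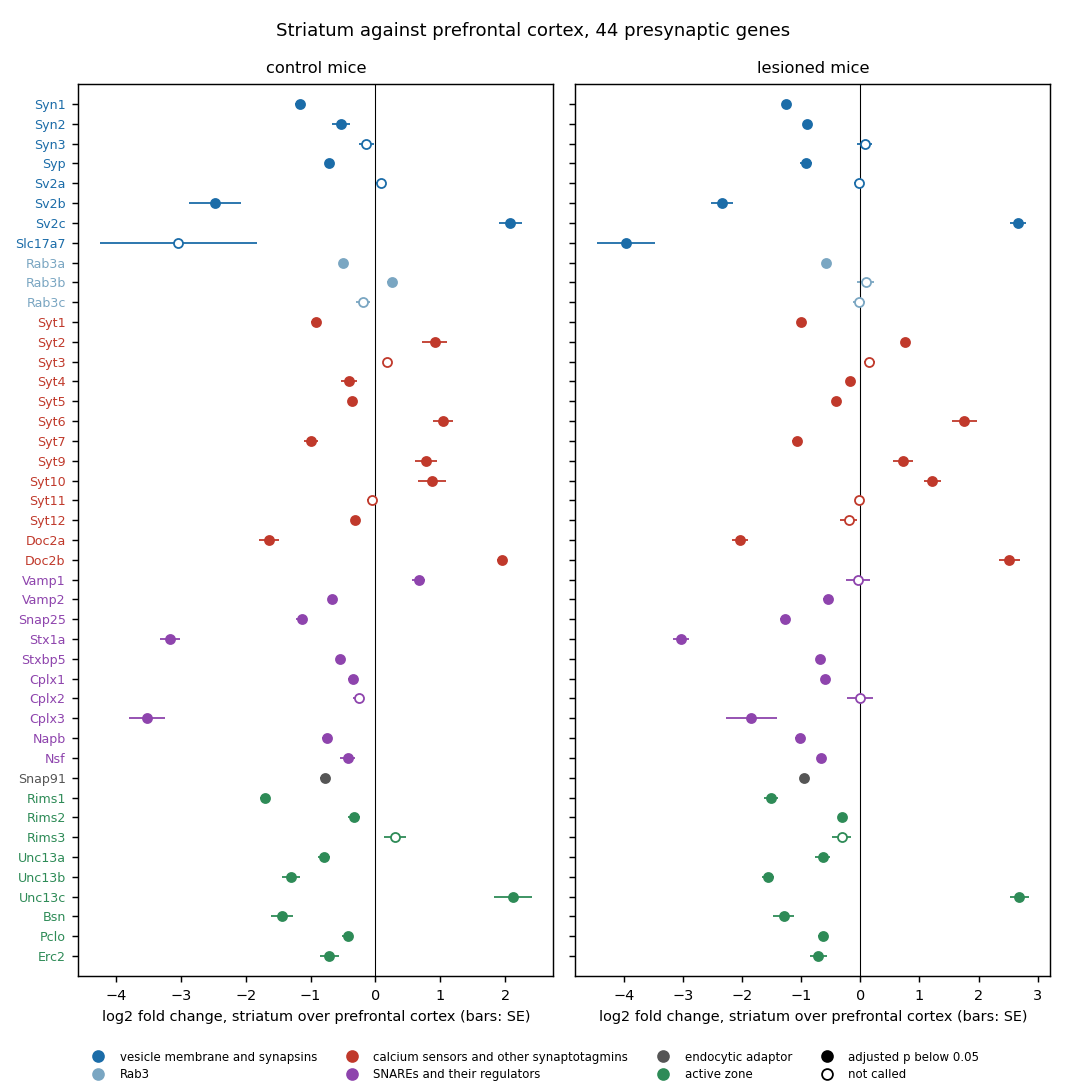
Log2 fold change of striatum over prefrontal cortex for each of the 44 release genes in controls (left) and after lesion (right), with bars for the standard error, colours for the role and filled points for genes that passed the test. Most points lie left of 0 in both panels, and Unc13c, Sv2c and Doc2b lie farthest to the right.

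Levels per kilobase of exon allow the genes to be ranked against each other. In control prefrontal cortex the order was Snap25 (1212 CPM per kb), Slc17a7 (695), Syp (631), Syt1 (448), Vamp2 (445) and Rab3a (345), and only Syt1 and Vamp2 overlapped among these neighbours. The lowest was Syt9 (2.57 CPM per kb). In control striatum Snap25 (548 CPM per kb) and Syp (385) were followed by Vamp2 (278), Cplx2 (255), Rab3a (243) and Syt1 (236), whose neighbouring ranges overlapped. Cplx3 (0.524 CPM per kb) was the lowest, and Slc17a7 ran from 2.28 to 226 CPM per kb between libraries.

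On the same scale the mixture of paralogs differed between the regions. Doc2b made up 17.9 ± 0.857% (SD, n = 3) of Doc2a and Doc2b together in control prefrontal cortex, 14 ± 0.127% after lesion, 72.7 ± 4.67% in control striatum and 78.7 ± 6.92% in lesioned striatum. Unc13c made up 7.06 ± 0.642% of the Unc13 family in control prefrontal cortex and 41.7, 21.8 and 45.0% in the control striatal libraries, where library 2 was again the lowest. Sv2c took 1.48 ± 0.211% of the SV2 family in control prefrontal cortex, 9.88 ± 2.51% in control striatum and 14.8 ± 1.8% in lesioned striatum.

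Rims3 made up 19.5 ± 0.957% of Rims1, Rims2 and Rims3 in control prefrontal cortex and 28.1 ± 0.78% after lesion, where Rims1 went from 60.5% to 53.8%. All 3 lesioned libraries (27.3, 28.1 and 28.9%) were above the controls (20.6, 19.2 and 18.7%). In striatum Rims3 made up 40.7 ± 5.9% in control and 40.1 ± 8.36% in lesioned libraries. The share of Vamp1 in Vamp1 and Vamp2 was 5.69 ± 0.499% in control and 7.38 ± 0.419% in lesioned prefrontal cortex, without overlap, and 13.2 ± 1.26% and 10.2 ± 3.37% in striatum, with overlap. Shares of a sum move together within a family, so they are descriptions of the values above and no further test was made.

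**Figure D5:**
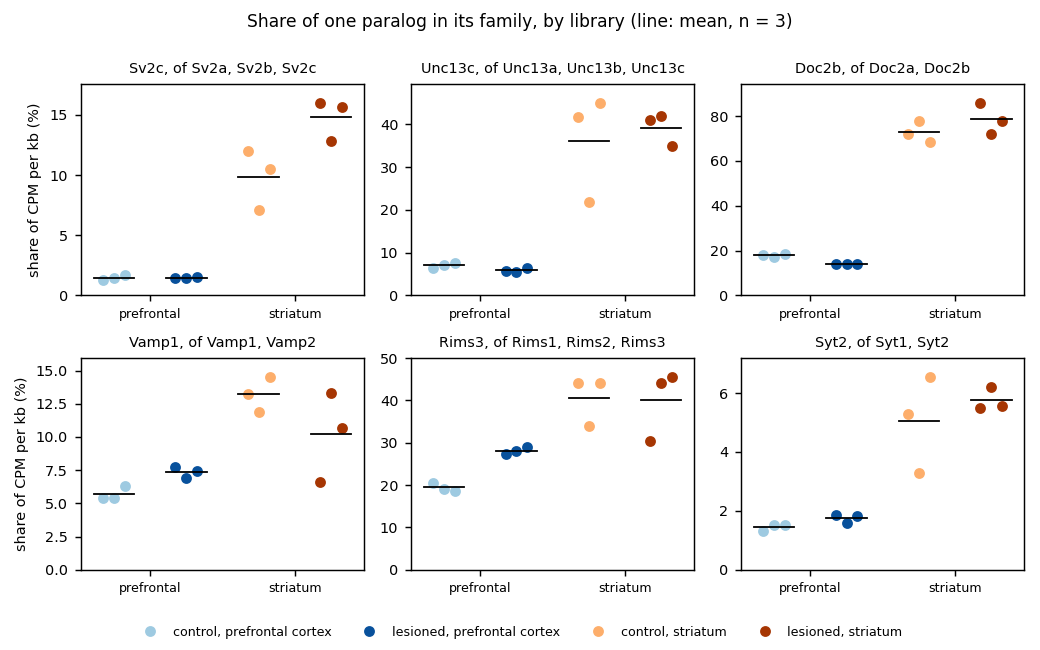
Share of 1 paralog in the summed CPM per kb of its family, in percent, 1 point per library in each of the 4 groups with the mean as a line (n = 3). Doc2b goes from 17.9% in control prefrontal cortex to 72.7% in control striatum, and the Rims3 share in prefrontal cortex is 19.5% in control and 28.1% after lesion.

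Further genes of vesicle release and recycling, 73 of 74 listed found in the table, were counted in the same way. In lesioned prefrontal cortex 5 of the 72 tested rose and none fell, with a median of 0.02. Cacna1b and Cacna1a, the pore subunits of the N-type and P/Q-type presynaptic calcium channels, rose by 0.27 ± 0.05 (adjusted p = 0.00467) and 0.24 ± 0.04 (adjusted p = 0.00807). Rph3a, which encodes the Rab3 effector rabphilin, rose by 0.21 ± 0.04 (adjusted p = 0.0144), Cadps2, a priming factor of dense-core vesicles, by 0.22 ± 0.06 (0.0340). The fifth, named because it completes the count, was Ppfia3, a liprin of the active zone (0.18 ± 0.05, adjusted p = 0.0395). That is 6.94% of those tested, beside 5.73% over all genes. In lesioned striatum none of the 73 passed, and Syt14 (0.52, adjusted p = 0.160) and Slc17a8 (0.85, adjusted p = 0.181) had the smallest p. For the difference between regions none of the 73 passed. Between regions 11 were higher and 41 lower in control striatum (against 21.3% and 21.0% of all genes tested), and 14 and 42 after lesion (against 22.7% and 22.5%). The vesicular transporters of monoamines (Slc18a2, 4.09 ± 0.39), acetylcholine (Slc18a3, 3.66 ± 0.32) and GABA (Slc32a1, 1.77 ± 0.15) were higher in control striatum. They are named here for their function after their values were seen. Slc18a2 was the gene of the 73 left untested for the lesion in prefrontal cortex, where its counts did not pass the filter. Its passing the filter between regions therefore depended on striatal counts, which favoured this direction. Summed thalamic or hypothalamic markers were 235 to 620 CPM in control striatum and 29 to 33.8 CPM in control prefrontal cortex. The part of such RNA in these region differences was not tested.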

How the data were processed

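The authors deposited raw read counts per gene symbol in 1 table for 12 libraries. STAR 2.7.1a, featureCounts and mm10 are named in the submitters' processing notes. Per the labels' protocols, mRNA from 500 ng of total RNA (integrity number at least 8.9) went into a strand-marking library kit and was sequenced as 101 bp paired reads. For the annotation and the strand setting of the counting, no statement was given in the sources used here. Genes with antisense exons are therefore uncertain. Among them are Doc2a (951 of 2538 bp shared), Pclo (925 bp), Syp (875 bp), Unc13a (495 bp) and Doc2b (241 bp). The region differences of Doc2a and the share of Doc2b in Doc2a and Doc2b carry the same uncertainty. Bsn is uncertain too (57 bp shared with a gene on its own strand).

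Of 18140 symbols above 0, 1830 hold only multiples of 11 and are exactly those at 0 in lesioned prefrontal library 1. They carry 0.144% of counts, include none of the 44 genes and were left out. Counts were tested in R 4.3.3 with edgeR 4.0.16 (filterByExpr, TMM, quasi-likelihood, two-sided, Benjamini-Hochberg adjustment over all genes tested, calls at adjusted p below 0.05), on the 6 libraries compared with 4 residual degrees of freedom, or on all 12 for the difference between regions. CPM values use TMM-scaled library totals of the 12-library fit. Floors of 3 counts cover counting error only. Exon lengths and coordinates come from GENCODE M21 (mm10), promoters from RefSeq (GRCm38.p6).

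Alternatives were RLE factors, DESeq2 1.42.0, no filter, at least 1 CPM in 3 libraries, all 12 libraries in 1 fit, the multiples of 11 kept, a replicate block, a smooth correction for GC content and length (mgcv 1.9.3), each library left out, and both striatal libraries that stood apart left out. The edgeR step was tested on simulated data. Full values are given for genes called after lesion (up to 8 by p, or the 3 smallest p where fewer than 3 passed), the 6 largest per direction between regions, and 11 fixed genes. The 44 genes, the other lists, this rule and the fit per region were chosen with earlier results of these data known.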

Additional observations from a re-analysis of the deposited data

Results flagged for a closer look

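For Cplx1, which encodes complexin 1, the lesioned libraries lay on opposite sides of the controls in the 2 regions, although neither effect passed the test. In prefrontal cortex it was at 601, 651 and 612 CPM in control and 658, 664 and 687 CPM in lesioned libraries, all higher (log2 fold change 0.10, adjusted p = 0.228 in edgeR). In striatum it was at 461, 489 and 508 CPM against 452, 435 and 438 CPM, all lower (-0.15, adjusted p = 0.384). The difference of the effects, striatum minus prefrontal cortex, was -0.25 ± 0.09 (unadjusted p = 0.0151, adjusted p = 0.338 over 14545 genes), so it did not pass. Cplx1 was picked from the 44 genes for this pattern. Of all genes tested, 14.2% were higher without overlap in prefrontal cortex and 12.7% were lower without overlap in striatum. How many of all genes show both was not counted.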

How the results depend on the processing

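With 3 libraries a group and 4 residual degrees of freedom, prefrontal calls near the threshold depend on single libraries. The 8 prefrontal calls became 0 with all 12 libraries in 1 fit (30 genes in all against 803), 5 with the GC and length correction (735 genes, 372 higher and 363 lower against 484 and 319) and 2 to 10 with 1 library left out (195 to 1010 genes). The 0 striatal calls became 1 with DESeq2 (506 genes against 4) and 3 with all 12 libraries (1040 genes, 603 higher and 437 lower). For the difference between regions the 0 calls became 0 to 1 with 1 library left out (0 to 172 genes against 12) and 2 without both striatal libraries that stood apart (101 genes), and stayed 0 with DESeq2 (110 genes). The causes were not tested. In prefrontal cortex 7 of 14 alternatives moved the count by over 1.5 times; between regions none did (31 to 40 genes in controls, 33 to 38 after lesion). Among the 44 release genes, none that had passed changed sign in its comparison under these alternatives, which were not run for the further genes of release and recycling. Deviations of same-numbered libraries correlated at r from -0.16 to 0.15 over 12781 genes. Between regions of the same arm, r was -0.01 to 0.15 for same numbers and -0.18 to 0.10 for different ones. These few values cannot show whether a number marks 1 animal in both regions, and the numbers were not treated as pairs. With a replicate block the release genes called were 7 in lesioned prefrontal cortex (6 shared, Bsn gained, Syt2 and Snap25 lost) and 0 in lesioned striatum. The block gave 0 for the difference, and 37 and 33 between regions in controls and after lesion. With the block the striatal log2 fold change of Slc17a7, which had not passed, was 0.05.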
